A study of Mus musculus with 4 samples.

Results

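Apela and Trh encode secreted peptide ligands, and both were lowest on the array of cells that co-expressed sea urchin PRDM14 and CBFA2T. They are described here with a further ligand gene, Apln, and with the receptor genes Aplnr and Trhr. The 5 genes were chosen by their symbols in the platform annotation, and each had 1 probe set, out of 22180 genes with a probe set of their own and 41345 probe sets in all. Apela and Trh were picked because they were already known to be past 2-fold lower with CBFA2T, so those differences are given as descriptions. The receptors and Apln were added as partners of these ligands, whatever their values.

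All cells were mouse embryonic stem cells without Prdm14, a gene of naive pluripotent and germ cells that encodes a zinc finger protein. They expressed PRDM14 and CBFA2T of sea urchin together (CBFA2T belongs to a co-repressor family), sea urchin PRDM14 alone, mouse PRDM14, or an empty vector. Every culture was kept in medium with 2 kinase inhibitors (2i) and leukemia inhibitory factor on STO fibroblasts, so feeder RNA may be in each sample. Total RNA of each group was hybridised to 1 array, all 4 on strip 2, and a different strip that the design text mentions was not analysed here. The labels do not say how many clones were used or which promoter drove the vectors.

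Apela encodes a short secreted peptide, also called ELABELA or Toddler, that activates the apelin receptor. In zebrafish it guides cell movements during gastrulation, human embryonic stem cells secrete it, and in mouse embryonic stem cells its RNA has been described as a regulator of p53 signalling. Apln encodes apelin, the other ligand of the same receptor, and Aplnr encodes the receptor, which couples to inhibitory G proteins. Trh encodes the precursor of thyrotropin-releasing hormone, a hypothalamic tripeptide that stimulates thyrotropin release from the pituitary. Trhr encodes its receptor, which acts through Gq proteins and phospholipase C.

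The promoters of Apela and Trh are shown because these are the members that differed most between arrays. RefSeq promoter sequences of build GRCm38.p6 were found for 3 of the 5 genes (Apela, Apln and Trh), and the 250 bases before the start of transcription are printed. Apela lies on chromosome 8 (chr8:65037337-65037586, minus strand) and Trh on chromosome 6 (chr6:92244651-92244900, minus strand). Capitals mark matches on either strand. In Apela they mark the octamer ATGCAAA, which POU factors such as Oct4 bind. In Trh they mark TGACCTCA, known in this promoter as a site for thyroid hormone receptor and CREB, and the core promoter element TATAA.
Apela: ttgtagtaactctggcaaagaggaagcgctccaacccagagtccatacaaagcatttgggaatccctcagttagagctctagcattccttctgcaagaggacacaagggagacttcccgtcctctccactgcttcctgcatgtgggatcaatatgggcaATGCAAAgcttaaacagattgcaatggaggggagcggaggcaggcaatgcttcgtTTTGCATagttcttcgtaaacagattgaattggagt
Trh: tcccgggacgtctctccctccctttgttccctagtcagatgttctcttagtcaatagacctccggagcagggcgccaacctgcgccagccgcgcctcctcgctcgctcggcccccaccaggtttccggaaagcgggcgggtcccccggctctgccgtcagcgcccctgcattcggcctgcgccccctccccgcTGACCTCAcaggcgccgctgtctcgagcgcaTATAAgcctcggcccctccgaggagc

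The Apela promoter held ATGCAAA at 2 places, beginning 91 and 36 bases before the start, the nearer one on the opposite strand. At least 1 match to ATGCAAA was found in 4.12% of 32851 promoters of the same length, and 2 or more in 0.247%. Trh had TGACCTCA beginning 57 bases before the start, a sequence present in 1.94% of promoters, and TATAA beginning 26 bases before it, present in 22.8%. No matches overlapped. GGTCTC, the core of the sequence known to be bound by PRDM14, was in neither window, against 13.7% of all promoters. The Trh window was 68.8% G and C with 25 CpG sites, the Apela window 48% with 5, against medians of 52.4% and 6 over all promoters. All motifs but GGTCTC were chosen after these sequences had been read, and a match shows letters, not a bound site.

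Values below are log2 levels made by the authors with RMA, or differences between 2 such levels, where 1 corresponds to 2-fold. Each group had a single array, so the values have no error, differences were not tested and p-values are absent. A level under 4.84, the median of all probe sets with 1 gene, is called dim, because background pulls the folds of dim genes toward 1. Between any pair of arrays, Pearson's r across probe sets was 0.986 to 0.989. Prdm14 itself lay between 5.53 and 5.77 on all 4 arrays. Cbfa2t2, a mouse relative of the introduced co-repressor, was at 5.10 with sea urchin PRDM14 and CBFA2T, 5.53 with sea urchin PRDM14 alone, 5.62 with mouse PRDM14 and 5.42 with the empty vector. It was lowest on the same array as Apela and Trh, with differences of -0.43 from sea urchin and -0.52 from mouse PRDM14, both outside the middle 95% (-0.31 to 0.30 and -0.31 to 0.35) of the 12042 genes past the filter, those whose highest level over the 4 arrays reached 4.84. From the empty vector it differed by -0.32, at the lower edge of that pair's range of -0.32 to 0.37, at rank 282 from the lowest. Prdm14 did not separate the groups, and where its probes lie in the gene was not given, so the labels could not be checked this way; group names below mean the arrays labelled with them.

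Apela had a level of 3.32 with sea urchin PRDM14 and CBFA2T, 4.34 with sea urchin PRDM14 alone, 4.74 with mouse PRDM14 and 5.14 with the empty vector. The gene was thus above the dim range on the empty vector array alone, lower on each of the PRDM14 arrays, and lowest with CBFA2T. From the lowest array upward the steps were 1.03, 0.39 and 0.40. Apela passed the filter only through the empty vector array, where it is highest. For scale, the middle 95% of genes past the filter lay between -0.31 and 0.30, -0.31 and 0.34, and -0.31 and 0.31 in the same pairs of arrays.

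Trh had a level of 6.05 with sea urchin PRDM14 and CBFA2T, 7.41 with sea urchin PRDM14 alone, 7.26 with mouse PRDM14 and 7.58 with the empty vector. It was above the dim range on all 4 arrays, and its fold does not rest on values near background as that of Apela does. The other 3 arrays lay within 0.32 of each other, and the array with CBFA2T lay 1.21 below the next. The step of 0.16 from mouse to sea urchin PRDM14 and that of 0.17 from sea urchin PRDM14 to the empty vector were both inside the range of the middle 95% of genes. The difference of mouse PRDM14 from the empty vector, -0.32, was just outside its range of -0.31 to 0.31. These ranges describe the genes past the filter and not the error of Trh. With 1 array per group, the order of these 3 arrays is not settled. The place of the CBFA2T array at the bottom follows from how both ligands were picked.

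**Figure D1:**
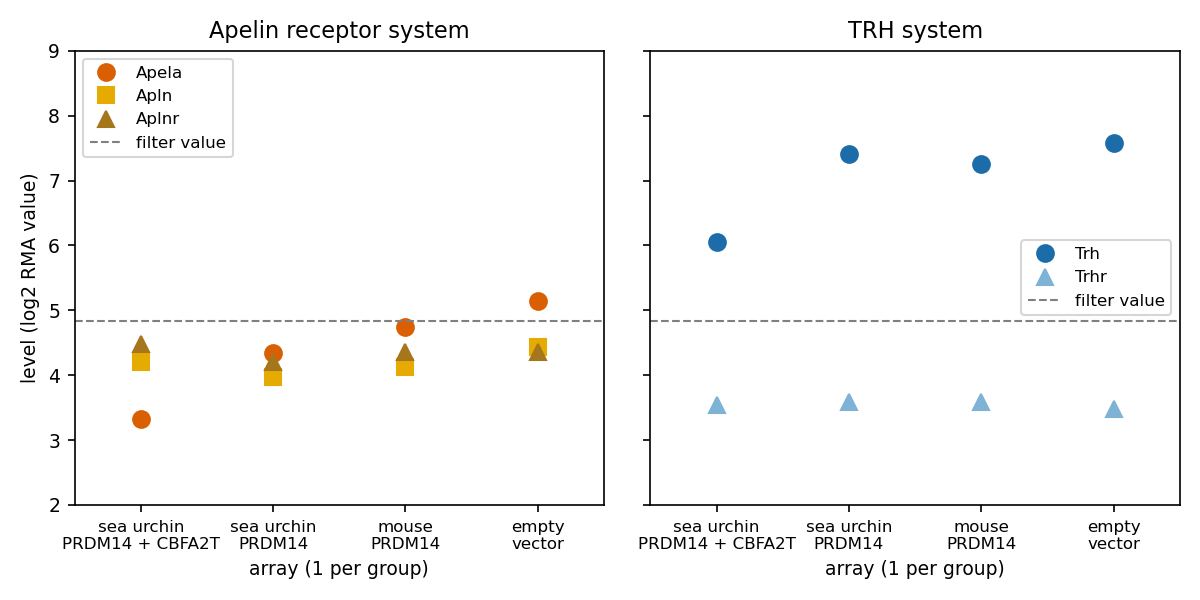
Levels of the 5 genes on the 4 arrays, as log2 RMA values (vertical axis), with 1 point per gene and array; the dashed line is the filter value of 4.84. Apela and Trh are lowest with sea urchin PRDM14 and CBFA2T, at 3.32 and 6.05, while Apln, Aplnr and Trhr lie below the line on every array.

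Apln, the other ligand of the apelin receptor, was dim everywhere. Its level was 4.20 with sea urchin PRDM14 and CBFA2T, 3.97 with sea urchin PRDM14 alone, 4.12 with mouse PRDM14 and 4.44 with the empty vector. It thus had its lowest value with sea urchin PRDM14 alone, not with CBFA2T, and its highest with the empty vector. The difference of sea urchin PRDM14 from the empty vector was -0.47, outside the -0.30 to 0.27 that held the middle 95% of the 10138 genes below the filter. With mouse PRDM14 it was -0.32, just outside a range of -0.29 to 0.29, and with CBFA2T -0.24, inside a range of -0.30 to 0.30.

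Neither receptor gene was past 2-fold in any pair. The share of genes past the filter that were was 0.208% or less in every pair, so nothing is read from this. Aplnr, the receptor of both Apela and apelin, was at 4.48 with sea urchin PRDM14 and CBFA2T, 4.20 with sea urchin PRDM14 alone, 4.35 with mouse PRDM14 and 4.35 with the empty vector. Its value with CBFA2T was the highest of the 4, on the array where Apela was lowest, and the 2 sea urchin arrays differed by 0.28, at the upper end of the middle 95% of genes below the filter (-0.27 to 0.28). Trhr was at 3.54 with sea urchin PRDM14 and CBFA2T, 3.59 with sea urchin PRDM14 alone, 3.59 with mouse PRDM14 and 3.48 with the empty vector, a spread of 0.11. Both receptors were dim on all 4 arrays, and RMA values carry no detection call, so whether either is expressed cannot be read from them. Trhr2, a further mouse receptor for the same hormone, lay between 5.73 and 5.79, above the dim range, with a spread of 0.06. Without a detection call, that level does not show whether Trhr2 is expressed either.

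In the 3 comparisons of the CBFA2T array with the others, Apela and Trh were the 2 of 5 members past 2-fold, both lower. Against the empty vector, Apela differed by -1.82 (3.53-fold lower) and Trh by -1.53 (2.89-fold lower), the lowest and the third lowest differences of the 12042 genes past the filter. The share of these genes at least 2-fold lower in that pair was 0.0498%. This contrast chose both genes, so nothing is read from their count. The last gene inside the threshold there was Cth, a cysteine synthesis enzyme, at -1.018, and the first outside was Gja1, a gap junction gene, at -0.926. Symbols with Gm plus a digit, LOC, Mir, Snor, Scarna, Olfr, Vmn, n-R or Rik were left out when such genes were named.

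Between the 2 sea urchin arrays, which by their labels differ in CBFA2T, Trh differed by -1.37 (2.58-fold lower) and Apela by -1.03 (2.04-fold lower). Of genes past the filter, 0.0498% were at least 2-fold lower, and the differences of Apela and Trh were also known when they were picked. Apela is close to the threshold here: Epha2, an ephrin receptor gene, was just inside at -1.003. Among the symbols kept for naming, Gja1 was just outside at -0.941. Against mouse PRDM14, Apela differed by -1.42 and Trh by -1.21, where 0.0581% of genes past the filter were at least 2-fold lower. The 3 comparisons share the CBFA2T array, so a chance low value on it would appear in each.

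Without CBFA2T no member reached 2-fold. Sea urchin PRDM14 alone against the empty vector gave -0.79 for Apela (1.73-fold lower), which passed the filter only through the empty vector array, and -0.17 for Trh. In that pair 0% of genes past the filter were at least 2-fold lower and 0.158% at least 1.5-fold lower. Mouse PRDM14 against the empty vector gave -0.40 for Apela and -0.32 for Trh, beside a middle 95% of genes of -0.31 to 0.31, and 0.0249% of genes were at least 2-fold lower. These 2 comparisons and that of the CBFA2T array share the empty vector array, on which both ligands were highest. Sea urchin against mouse PRDM14 gave -0.39 for Apela and 0.16 for Trh, so the ligands differed in sign there, and 0.0083% of genes were at least 2-fold lower.

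Some pairings of differences share no array. The first is mouse PRDM14 minus empty vector, and CBFA2T added to sea urchin PRDM14. Apela had log2 differences of -0.40 and -1.03, and Trh of -0.32 and -1.37; the sign of the second was fixed by how they were picked. Apln had -0.32 and 0.23, Aplnr 0.01 and 0.28, and Trhr 0.11 and -0.05. With CBFA2T array minus empty vector beside sea urchin minus mouse PRDM14, Apela had -1.82 and -0.39, and Trh -1.53 and 0.16. Sea urchin PRDM14 minus empty vector beside CBFA2T array minus mouse PRDM14 gave -0.79 and -1.42 for Apela, and -0.17 and -1.21 for Trh. Signs of the differences with the CBFA2T array again follow from how the ligands were picked. In whole cultures, fewer cells that express a gene and less of its RNA per cell cannot be told apart.

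**Figure D2:**
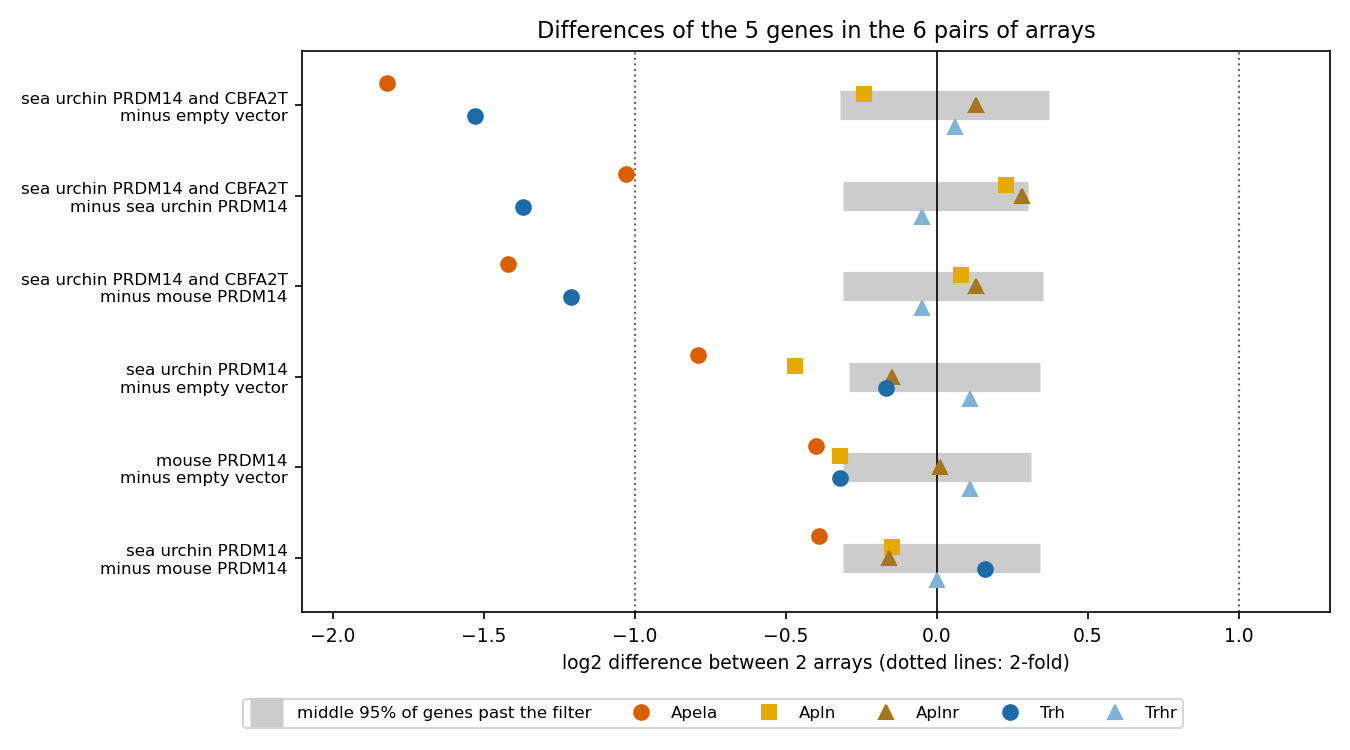
Log2 differences of the 5 genes (horizontal axis) in the 6 pairs of arrays (rows), with 1 point per gene; grey bars span the middle 95% of genes past the filter and dotted lines mark 2-fold. Apela and Trh lie left of the 2-fold line in the 3 upper rows, which all hold the CBFA2T array and include the contrasts they were picked on.

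Apela and Trh were also compared with genes past the filter by the shape of their 4-array profiles, each centred on its own mean. The root mean square distance was the measure of likeness. When the nearest genes were named, the symbols left out above were left out again. Sfrp1, which encodes a secreted Wnt antagonist, was nearest to both, at 0.10 from Apela and 0.17 from Trh. Its levels were 6.89 with sea urchin PRDM14 and CBFA2T, 7.97 with sea urchin PRDM14 alone, 8.28 with mouse PRDM14 and 8.49 with the empty vector, the same order of arrays as for Apela. The ligand genes were each other's second nearest at 0.24. The median distance of genes past the filter was 0.68 from Apela and 0.61 from Trh. Both ligands were picked for their drop on the CBFA2T array, so nothing is read from this closeness. Apela was also among the compared genes only through its empty vector value.

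After Sfrp1 and Trh, the genes nearest to Apela were Cth at 0.33, Laptm5 (a lysosomal membrane protein gene) at 0.37 and Ctsc (the protease cathepsin C) at 0.40. Those nearest to Trh after Sfrp1 and Apela were the Nodal co-receptor gene Tdgf1 at 0.32, Epha2 at 0.33 and Ubr7, a ubiquitin ligase family gene, at 0.34. The 2 sets differ in where the array with sea urchin PRDM14 alone stands. Cth was at 5.57 there, against 6.19 with the empty vector, whereas Tdgf1 was at 8.74, against 8.25 with the empty vector. All profiles rest on the same 4 arrays, and genes with a large drop on the CBFA2T array are near by construction.

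**Figure D3:**
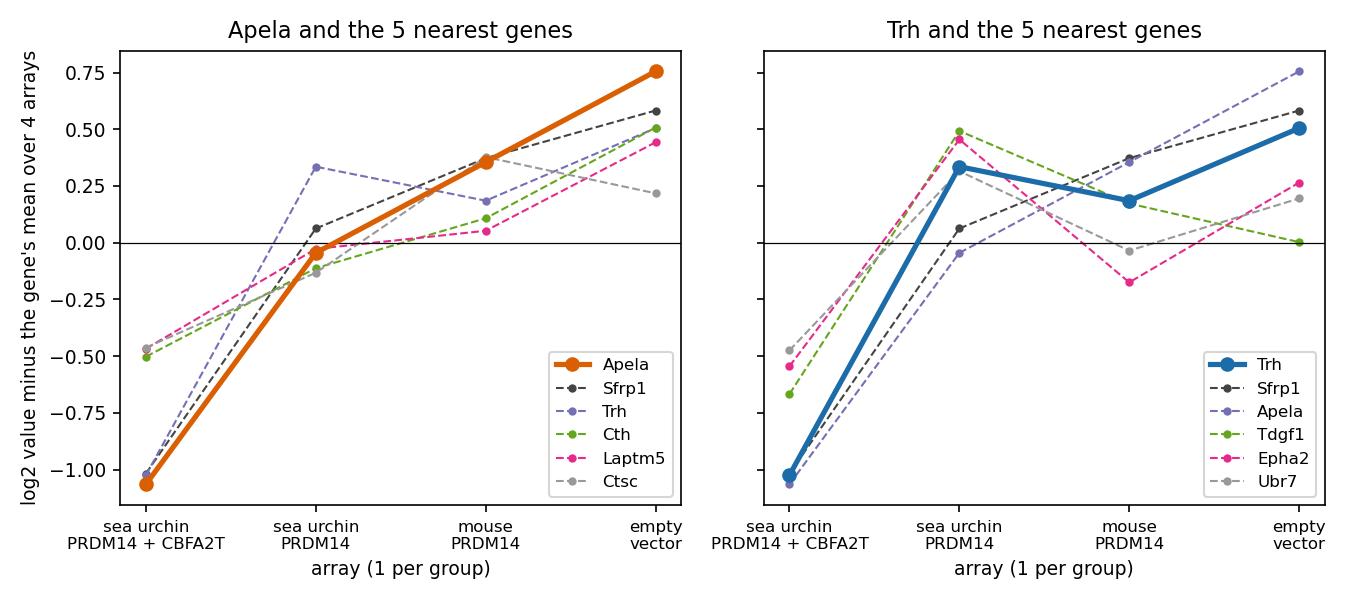
Centred profiles over the 4 arrays (log2 value minus the gene's own mean, vertical axis) of Apela, left, and Trh, right, as thick lines. Dashed lines are the 5 nearest genes of each among the symbols kept for naming. All are lowest with sea urchin PRDM14 and CBFA2T; Sfrp1 follows Apela at a distance of 0.10, while Tdgf1 and Epha2, near Trh, are highest with sea urchin PRDM14 alone.

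The genes next to Apela and Trh on their chromosomes were read as well. As background for their counts, the share past 2-fold in either direction was taken over genes past the filter. It was 0.208% when the CBFA2T array was set against the empty vector, 0.183% against sea urchin PRDM14 alone and 0.183% against mouse PRDM14. Relative to the empty vector it was 0.0332% with sea urchin PRDM14 and 0.083% with mouse PRDM14, and between these it was 0.0581%. Without the filter the share was 0.122% or less in every pair, and the counts below include genes that did not pass it. Of the 10 nearest measured genes around Apela, 5 on each side by the order of GRCm38.p6, 0 were past 2-fold in any of the 6 pairs. With CBFA2T against the empty vector they lay between -0.32 and 0.42, with a median of 0.02, beside -1.82 for Apela. The lowest of them was Cpe, a carboxypeptidase gene that also belongs to hormone processing. Around Trh, the 10 nearest genes lay between -0.20 and 0.14 in the same pair, with a median of 0.02, beside -1.53 for Trh itself, and 0 were past 2-fold in any pair. With so low a background share, 0 of 10 is near what any 10 genes would give. These neighbours were examined after the ligands' values had been seen, and 8 of the 10 around Apela were dim on every array.

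Genes that make, break down and transmit the ligands were read from lists, with the same background shares. The list of apelin receptor signalling and peptide processing had 15 of 17 genes measured, and 0 were past 2-fold in any pair. With CBFA2T against the empty vector, 5 of the 13 past the filter were above 0 and 8 below. Their median was -0.07, beside 0.01 for all genes past the filter. The largest difference belonged to Mme, which encodes neprilysin, a membrane protease that cleaves apelin. Mme was at 4.54 with sea urchin PRDM14 and CBFA2T, 4.43 with sea urchin PRDM14 alone, 4.83 with mouse PRDM14 and 5.21 with the empty vector. Like Apela it was highest with the empty vector, and it was dim on the other arrays; its differences from the empty vector were -0.67, -0.78 and -0.38 in the same order. Furin, a protease that cuts many peptide precursors and is named here for that role, lay between 5.84 and 5.94, and the inhibitory G protein gene Gnai2, named after its values were seen, was at 7.49 with CBFA2T against 7.90 with the empty vector.

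The TRH list of processing, breakdown and signalling genes had 20 of 21 measured, again with 0 past 2-fold in any pair. Its median with CBFA2T against the empty vector was -0.03 over 11 genes past the filter, 5 above 0 and 6 below. The largest in that pair was 0.35, for the phospholipase C gene Plcb3. Over all pairs and all 20 genes it was that of Cpe, which trims peptide precursors after cleavage, at -0.48 for CBFA2T against mouse PRDM14. Cpe was at 4.01 with sea urchin PRDM14 and CBFA2T, 4.23 with sea urchin PRDM14 alone, 4.49 with mouse PRDM14 and 4.33 with the empty vector, dim on all arrays. Of genes named for their role, Pam, the enzyme that amidates TRH, lay between 4.91 and 5.18, Pcsk1, a prohormone convertase, had a spread of 0.03, and Trhde, the enzyme that degrades TRH, lay between 3.73 and 3.86. The Gq protein gene Gnaq lay between 5.15 and 5.39.

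Genes known to control Trh transcription in the hypothalamus ranged from -0.27 to 0.28 over the 10 measured of 11 and all 6 pairs; this is the shortest of the pathway lists, and a range widens with the number of genes. Rxrb, a retinoid X receptor that pairs with thyroid hormone receptors, had the largest difference, 0.28 with mouse PRDM14 against the empty vector. The thyroid hormone receptor genes Thra (4.58 to 4.76) and Thrb (3.85 to 4.03) were dim throughout. Creb1, the cAMP response factor gene, was at 4.98 with sea urchin PRDM14 and CBFA2T, 5.03 with sea urchin PRDM14 alone, 5.0 with mouse PRDM14 and 5.17 with the empty vector.

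Other peptide hormone and neuropeptide genes were counted against the background shares above, which at 0.208% or less leave little room for a call in lists of this size. Of 55 ligand genes listed 51 were measured, with 0 past 2-fold in any pair (range -0.38 to 0.49). With CBFA2T against the empty vector the 33 past the filter split into 17 above 0 and 16 below. Their median of 0.01 was equal to that of all genes past the filter. The largest difference was in Calcb, a calcitonin gene-related peptide gene, at 4.86 with sea urchin PRDM14 and CBFA2T, 4.58 with sea urchin PRDM14 alone, 4.37 with mouse PRDM14 and 4.42 with the empty vector. It was highest where the chosen ligands were lowest, and passed the filter through the CBFA2T array alone. Of 58 peptide receptor genes 56 were measured, with 0 past 2-fold and a range of -0.36 to 0.43. The largest difference was in Calcr, the calcitonin receptor gene, at 4.08 with CBFA2T against 3.65 with sea urchin PRDM14 alone, both dim.

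**Figure D4:**
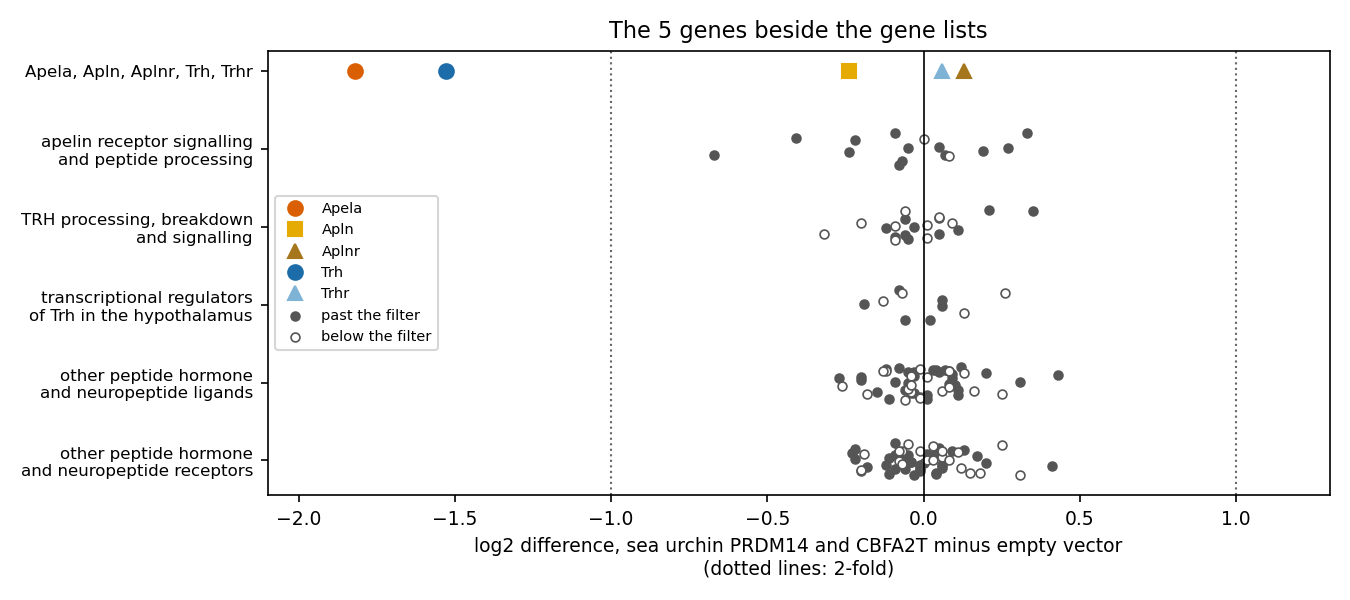
Log2 differences between the array with sea urchin PRDM14 and CBFA2T and the empty vector array (horizontal axis) for the 5 genes (top row) and the genes of 5 pathway lists, with 1 point per gene; filled grey points passed the filter, open points did not, and height within a row carries no value. Apela (-1.82) and Trh (-1.53) lie past the dotted 2-fold line, and no listed gene does; Mme (-0.67) is the lowest of these.

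Markers of the labelled cell type were read as well. The filter was passed by 12042 of 22180 genes, and by 11 of 14 measured definitive endoderm and mesendoderm markers. Passing it therefore does not check the cell type. Of 14 naive embryonic stem cell markers 13 passed the filter, and their mean level over all 14 was 6.69 with sea urchin PRDM14 and CBFA2T, 6.56 with sea urchin PRDM14 alone, 6.79 with mouse PRDM14 and 6.69 with the empty vector. This mean was the same on the arrays where Apela and Trh were lowest and highest, but single markers differed between these arrays by -0.23 to 0.25. Of the 13 past the filter, 6 were above 0 and 7 below. Whether naive cell state has a part in the Apela and Trh values was not tested. Nanog, a core factor of naive pluripotency, lay between 8.75 and 9.28, Sox2 between 7.74 and 7.82 and Klf2 between 7.09 and 7.55. Tfcp2l1 had the widest spread, at 7.21 with sea urchin PRDM14 and CBFA2T, 6.93 with sea urchin PRDM14 alone, 7.60 with mouse PRDM14 and 7.35 with the empty vector. Fibroblast feeder markers, 17 of 18 measured and 13 past the filter, had mean levels of 5.45 to 5.47 on the 4 arrays. Col5a1, Acta2, Vim and Col6a1 were the highest of these, between 6.59 and 6.94, and the proteoglycan gene Lum, dim at 2.76 to 3.12, had the largest difference.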

How the data were processed

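The deposited log2 values are the authors' RMA output, according to the submitters' processing notes; the RMA version and genome build were not found in the sources read. RMA equalises the arrays (medians 4.54 to 4.55), so a shift shared by most genes would not show. Of 41345 probe sets, 23521 had 1 gene in the platform annotation, 1814 several and 16010 none; 23328 of the 23521 were found in RefSeq (GRCm38.p6). A gene with several probe sets was given the level of its brightest one, by the mean over arrays. The filter kept 12042 genes with a highest level of at least 4.84. Calls were made at 2-fold without a test, since each group had 1 array. Members, lists and rules were chosen with earlier results of these data known. Named genes were the 5 members, list members past 2-fold or the member with the largest difference, the 5 nearest profiles, Prdm14 and Cbfa2t2, and the 4 brightest of each marker list; other genes are outside this rule and were named for their role or after their values were seen. The calling code was run on simulated data with changes well past 2-fold and less noise than these data. That checks the code and not calls near 2-fold. The settings varied were the threshold (1.5-fold), the filter (none, or 5.65), the scaling between arrays (cyclic loess with limma 3.58.1 in R 4.3.3, or median centring) and the probe set rule (the mean of all). Python 3.11.15, numpy 2.4.6, pandas 2.3.3 and matplotlib 3.10.9 were used.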

Additional observations from a re-analysis of the deposited data

How the results depend on the processing

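The 30 differences of the 5 genes moved by at most 0.03 under cyclic loess, median centring and the mean of all probe sets, and all 90 such values stayed on the same side of 2-fold; the mean of probe sets changes nothing for genes with 1 probe set. Apela against sea urchin PRDM14 alone stayed just past the threshold, at -1.03 after cyclic loess and -1.02 after median centring. At 1.5-fold the members past the threshold came to 1 (Apela) in place of 0 where sea urchin PRDM14 was set against the empty vector. At 1.5-fold, listed genes past the threshold came to 1 in place of 0 when either sea urchin array was set against the empty vector (Mme both times), and to 2 in place of 0 for sea urchin against mouse PRDM14 (Lefty2 and Tfcp2l1). The percent of genes past the filter that lay past 2-fold, in either direction, is given in a fixed order of pairs. First come mouse PRDM14, sea urchin PRDM14 and the CBFA2T array against the empty vector. Then come CBFA2T array against sea urchin PRDM14, sea urchin PRDM14 against mouse PRDM14, and CBFA2T array against mouse PRDM14. The values were 0.083, 0.0332, 0.208, 0.183, 0.0581 and 0.183. At 1.5-fold these became 0.457, 0.498, 0.822, 0.515, 0.515 and 0.739. With no filter they became 0.0451, 0.018, 0.122, 0.108, 0.0361 and 0.113. With the stricter filter they were 0.0627 and 0.345 for the 2 sea urchin arrays against the empty vector, 0.314 between these arrays and 0.0941 between sea urchin and mouse PRDM14. A looser threshold calls more genes, and the filters change the number of genes counted, by construction. No paired analysis was possible because each group had 1 array. Leaving out an array was not possible for the same reason. Dim levels limit the folds of Apela, and say little of Apln, Aplnr and Trhr.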

Other observations

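Apela is also known as a gene of the endoderm, so endoderm markers were read beside it. Of 15 definitive endoderm and mesendoderm markers 14 were measured and 0 were past 2-fold in any pair. The share of genes past the filter that were past 2-fold was 0.208% or less in every pair, so little is read from this count. With CBFA2T against the empty vector the median of the 11 past the filter was -0.08, with 4 above 0 and 7 below. The median of all genes past the filter was 0.01. Foxa2 (7.05 to 7.18) and Gsc (6.74 to 6.92), transcription factor genes of the early endoderm and organizer, were nearly level. Over all pairs, the Nodal inhibitor gene Lefty2 had the largest difference, 0.93 for sea urchin against mouse PRDM14. It was at 6.46 with sea urchin PRDM14 and CBFA2T, 7.0 with sea urchin PRDM14 alone, 6.08 with mouse PRDM14 and 6.54 with the empty vector. Lefty1 stood in the same order (6.43, 6.92, 6.36 and 6.59). Both were highest with sea urchin PRDM14 alone, unlike Apela.

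All 15 primitive endoderm markers were measured, with 0 past 2-fold, beside the same share of 0.208% or less of genes past the filter. Over the 12 past the filter the median with CBFA2T against the empty vector was -0.08, with 2 above 0 and 10 below. The median of all genes past the filter was 0.01. Sparc, a matrix protein gene, had the largest difference, at 6.58 with CBFA2T against 7.05 with mouse PRDM14, and Gata4, Col4a1 and Col4a2 each varied by 0.24 or less over the 4 arrays. Whether the endoderm markers have a part in the Apela values was not tested.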
